A study of Mus musculus with 24 samples.

Results

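The genes described here encode the proteins of the cytosolic ribosome. They were chosen by symbol alone, as the *Rpl* and *Rps* genes with a number (with the suffixes a, x, y or l), *Rplp0* to *Rplp2* and *Rpsa*, and 70 of the 18762 genes of the table of normalized read counts matched, 42 of the large and 28 of the small subunit. RNA was sequenced from LSK-SLAM cells, the CD150+ CD48- part of the lineage-negative bone marrow cells with Sca-1 and c-Kit, a gate that enriches hematopoietic stem cells (HSCs). All mice were wild-type C57BL/6, 5 of them young (4 to 5 months) and 7 old (20 to 22 months), with no treatment and no transgene in either group. The ages are those of the labels, and the text of the study gives other ages for these cells. RNA of 15000 sorted cells per mouse was depleted of ribosomal RNA, and 300 pg entered a low-input library kit. The label of each mouse ends in A or B, letters whose meaning the labels do not give. Letter A marked young mice 1 and 2 and old mice 1, 5, 6 and 7, and letter B marked young mice 3, 4 and 5 and old mice 2, 3 and 4.

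A ribosome holds 1 copy of nearly every ribosomal protein, so that cells need these proteins in matched amounts. Their mRNAs are among the most abundant of dividing cells, and many begin with a terminal oligopyrimidine stretch, through which mTOR and LARP1 control their translation. HSCs are known for a low rate of protein synthesis compared with their progeny. Haploinsufficiency of single members such as *RPS19*, *RPL5* and *RPL11* causes Diamond-Blackfan anaemia, a failure of red cell production. The mouse genome carries many processed pseudogenes of these genes, copies of the spliced mRNA that were inserted elsewhere.

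RNA of HSC markers was found in every mouse, and so was RNA of markers of other cells, given further below. Neutrophil and monocyte markers reached a sum of 4640 normalized read counts in an old mouse. All 12 listed HSC markers were tested, among them *Kit*, *Ly6a* (Sca-1), *Slamf1* (CD150) and *Procr*, and their summed level was 3364 to 5675 normalized read counts in young and 1867 to 6345 in old mice. Mice had 0.861 to 5.12 M reads on genes, of which *Gm10800*, the gene with the most reads, took 1.60% to 18.6%. A mouse of letter A had a median of 2.12 M reads and a mouse of letter B 4.53 M. Since RNA came from bulk samples, less RNA of a gene per cell and fewer cells that carry it cannot be told apart.

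The 70 members together held 0.672% to 4.06% of the reads of a mouse. In young mice the share was 1.24%, 0.827%, 2.62%, 3.33% and 3.64% for mice 1 to 5. In old mice it ran from 0.672% through a median of 1.15% to 4.06%, and the old mice lay on both sides of the young. By letter the shares did not overlap. The 6 mice of letter A lay between 0.672% and 1.24% (median 0.837%) and the 6 mice of letter B between 2.49% and 4.06% (median 3.0%). Young mouse 1 was the highest of letter A and old mouse 4 the highest of letter B.

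Levels per kilobase of annotated exon differed widely among the members. The length was that of all annotated exons of a gene joined, such as 630 bases for *Rps15* and 4685 for *Rps19*. It may exceed that of the mRNA in the cells, so that levels of different genes compare only roughly. The highest means over all mice were those of *Rpl4*, a large subunit protein at the exit tunnel, with 1132 normalized read counts per kb, of *Rps15* with 746 and of the stalk gene *Rplp1* with 658. The lowest were *Rpl24* with 0.631, *Rpl10l*, a paralog of *Rpl10*, with 2.88 and *Rpl3l*, the striated muscle paralog of *Rpl3*, with 4.29. *Rpl24* encodes a constitutive large subunit protein, and its gene was listed at 0 to 1.58 normalized read counts in letter A and 0.196 to 0.759 in letter B. Across the 70 members the order of the levels per kb was only partly shared by the letters (Spearman's rho 0.55 between the mean of letter A and that of letter B, both scaled to the same exon lengths).

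A minimum mean of 10 normalized read counts was met by 66 members. The other 4 were *Rpl3l*, *Rpl39l*, *Rpl10l* and *Rpl24*. Of the 66, 8 had a mean under 10 in letter A and none in letter B, so that these 8 met the minimum through letter B alone and had to be higher there. Results by letter are therefore also given for all 70 members with no minimum.

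The study compared old with young mice. No ribosomal protein gene was called for age: with limma on log2(value + 1) and Benjamini-Hochberg adjustment over 12354 genes, 0 of 66 members had an adjusted p under 0.05, where 13 genes were called in all (0.105%). An unadjusted p under 0.05 was reached by 0 members and by 488 of the 12354 genes. With edgeR and DESeq2 on the recovered reads 0 members were called as well. In 64 of the 66 the fitted difference was negative, with a median of -0.48 on the log2 scale against -0.02 for all genes tested. Leaving out 1 mouse moved the median of the members to between -0.89 (without young mouse 2) and -0.27 (without young mouse 5). Young mice held letter A in 2 of 5 and old mice in 4 of 7, and the letters differed strongly in these genes. With the letter as a covariate 0 of 66 members were called (background 0.299%). An unadjusted p under 0.05 was reached by 2 members and by 643 of the 12354 genes (with edgeR by 1 and 648). The median of the members was -0.15 against -0.05 for all genes, and 14 members were positive. That median lay between -0.27 (without old mouse 4) and -0.059 (without young mouse 1) when 1 mouse was left out. Within letter A the median was -0.24 and within letter B -0.07, against -0.03 and -0.04 for all genes. In either letter 0 members were called by limma (background 0.00809% and 0.809%). An unadjusted p under 0.05 was reached there by 0 members, and by 318 and 995 of all genes tested.

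*Rps19*, the small subunit gene most often mutated in Diamond-Blackfan anaemia, had the smallest unadjusted p for age. Its normalized read counts were 101.7, 79.8, 96.7, 136 and 198 in young mice 1 to 5. In old mice 1 to 7 they were 66.0, 110, 98.3, 159, 67.1, 53.4 and 39.4. The groups overlapped, and the 3 lowest values were all old mice of letter A. The log2 difference, old minus young, was -0.59 (standard error 0.30, limma adjusted p = 0.9997). A two-sided exact permutation test over all splits of the mice gave p = 0.134, where the smallest possible is 0.00126. With the letter as a covariate the difference was -0.44 (standard error 0.21, limma adjusted p = 0.945).

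The 5 members with the most negative fitted age differences all had letter differences well above the median of the members. *Rpl36a*, which encodes a large subunit protein near the tRNA exit site, stood at -1.89 (standard error 1.55) and *Rpl23a*, a protein of the tunnel exit, at -1.49 (standard error 1.02). With the letter as a covariate they were -0.84 (standard error 0.45) and -0.81 (standard error 0.38), and within letter B -0.05 and -0.18, none of them called. The next 3 were *Rpl11* with -1.29, *Rps6* with -1.23 and *Rpl21* with -1.21, which with the letter as a covariate were at -0.33, -0.15 and -0.15. Only *Rps27l* with 0.32 (standard error 0.32) and *Rps28* with 0.30 (standard error 0.43) were positive. Neither was called, and the values of young and old mice overlapped for all 66 members, where 0.461% of all genes did not overlap.

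**Figure D1:**
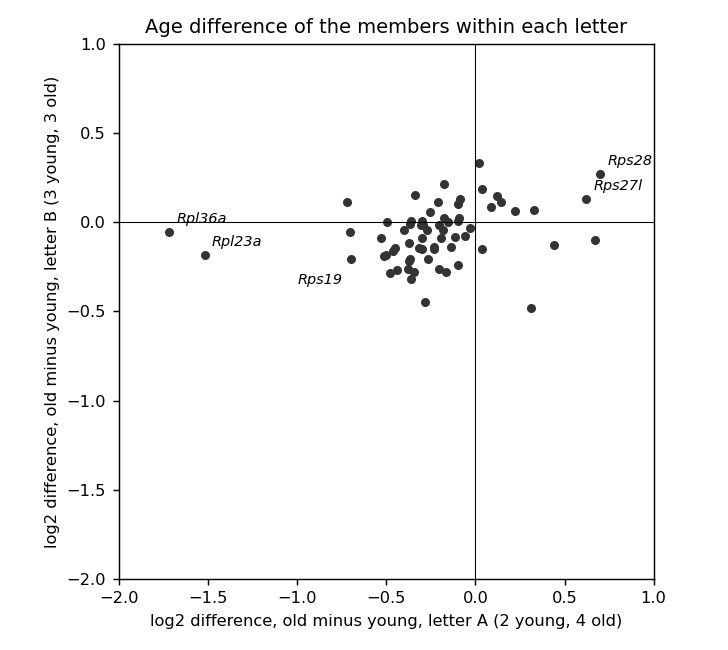
Log2 difference between old and young mice of the 66 members tested, fitted within letter A (x axis, 2 young and 4 old mice) and within letter B (y axis, 3 young and 3 old mice), with both axes on the same scale and 1 point per gene. *Rpl36a* and *Rpl23a* lie far to the left and near 0 in height, and 39 of the 66 members are negative in both letters. The members share the same libraries. Over all genes tested the medians are -0.03 in letter A and -0.04 in letter B, and genes negative in both were not counted.

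The age differences were estimated more precisely with the letter in the model. The standard error had a median of 0.54 over the members without the letter and of 0.22 with it as a covariate. For *Rps3*, a small subunit protein that also acts in DNA repair, the age difference was -0.31 (standard error 0.21). The interaction of age with the letter was called for 0 of 66 members (background 0.0162%). An unadjusted p under 0.05 was reached by 0 members with limma, where 424 of all genes tested reached it. With edgeR and DESeq2 it was 1 member each, where 402 and 511 genes reached it. The smallest limma p was that of *Rpl36a* (log2 difference 1.66, standard error 0.86, limma adjusted p = 0.9998). The value of *Rpl36a* rested on young mouse 2: without it the age difference with the letter as a covariate was -0.075 in place of -0.84, and the highest interaction of any member was 1.17.

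Between the letters the ribosomal protein genes stood far apart. With age in the model, 54 of the 66 tested members were higher in letter B and 0 were lower (limma adjusted p under 0.05), where 10.5% of all genes tested were called higher and 25.6% lower. The fitted difference, letter B minus letter A, was positive for all 66, with a median of 2.01 on the log2 scale against -0.09 for all genes. Over all 70 members with no minimum, 54 were higher and 1 was lower, where 7.28% and 27.2% of genes were called. The 1 lower member was *Rpl3l*, at 3.78 to 22.6 normalized read counts in letter A and 0.392 to 3.54 in letter B (log2 difference -2.13, limma adjusted p = 0.00411). Values of the letters did not overlap for 47 of the 66, all higher in letter B, against 3.16% of all genes in that direction, and 7.33% were higher in letter A. By subunit, 33 of 38 large and 21 of 28 small subunit members were called.

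The difference appeared at both ages. Among young mice alone 45 of 66 members were higher in letter B (background 1.53%), and among old mice alone 52 (background 4.85%), with 0 lower in either (background 2.09% and 17.5%). Across the 66 members, which share the libraries of each age, the letter differences of young and old mice had a Spearman's rho of 0.98. Thinning all mice to 861047 reads left 54 members called higher. Rescaling each mouse by the summed values of the members, which sets their total equal in all mice, left 30 called higher and 21 lower (background 0.397% and 98.4%), so that the members differed in unequal measure and not by 1 shared factor.

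**Figure D2:**
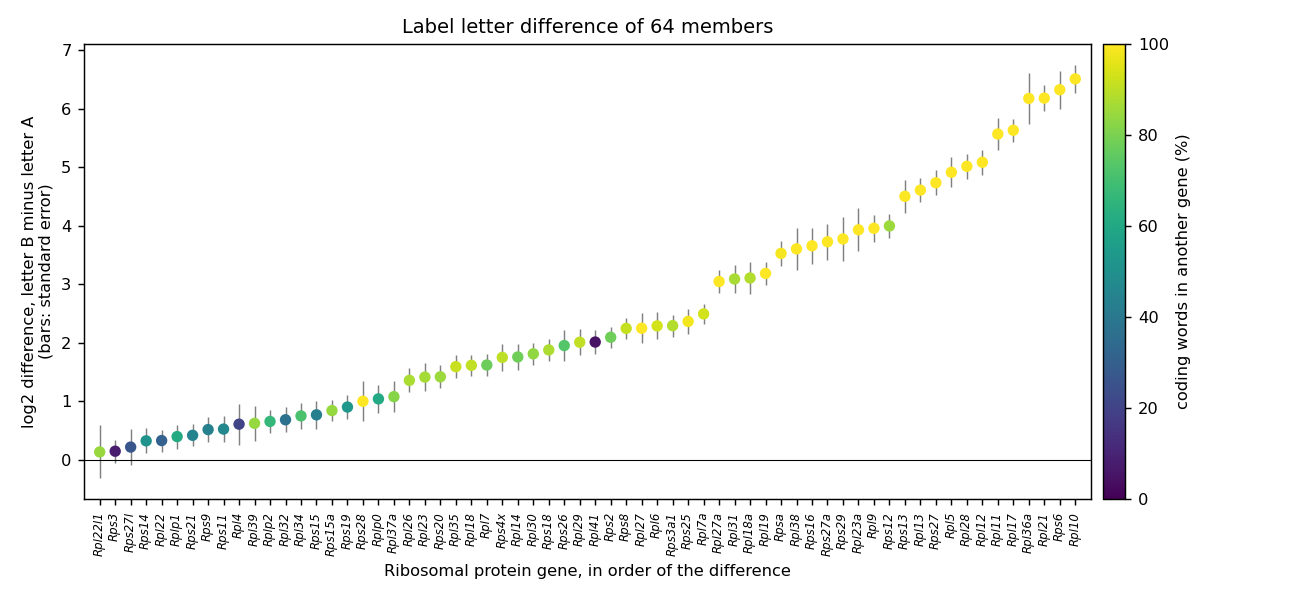
Log2 difference between letter B and letter A (y axis) of 64 of the 66 members tested, in order of its size along the x axis. Points are limma estimates with age in the model, bars their standard errors, and the colour gives the share of 50-base stretches of the coding sequence that also occur in another annotated gene. The difference runs from 0.13 at *Rpl22l1* to 6.51 at *Rpl10*, and dark points (few shared stretches) lie on the left apart from *Rpl41*.

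The largest differences were found for *Rpl10*, a late-joining large subunit protein, *Rps6*, the target of the S6 kinases, *Rpl21*, *Rpl36a* and *Rpl17*. *Rpl10* had a lowest, median and highest normalized read count of 3.69, 8.59 and 12.6 in letter A and of 605, 716 and 1015 in letter B. *Rps6* had 1.58, 13.1 and 19.7 in letter A and 679, 808 and 1261 in letter B. *Rpl21* had 16.6, 26.7 and 40.6 in letter A and 1565, 2097 and 3008 in letter B. In each of these 3 genes every mouse of letter B was far above every mouse of letter A. The fitted log2 differences were 6.51 (standard error 0.24, limma adjusted p = 4.86e-18), 6.33 (standard error 0.33, limma adjusted p = 9.16e-15) and 6.18 (standard error 0.22, limma adjusted p = 1.24e-18).

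*Rpl36a* was listed at 0 in 2 mice of letter A, at 0.311 to 0.472 in 3 others and at 11.1 in young mouse 2, with 26 reads in all 6 mice together. In letter B it lay between 109 and 210. *Rpl17* had 22.6 to 42.9 in letter A and 1270 to 2092 in letter B, with a log2 difference of 5.63 (standard error 0.20).

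At the other end, some members had small letter differences. *Rps3* had a lowest, median and highest normalized read count of 273, 400 and 574 in letter A and of 387, 456 and 559 in letter B. *Rpl22*, a large subunit protein with a known role in T cell development, had 151, 189 and 249 in letter A and 175, 240 and 321 in letter B. The letters overlapped for both genes. The log2 differences were 0.14 (standard error 0.20) for *Rps3* and 0.32 (standard error 0.19) for *Rpl22*, with limma adjusted p-values of 0.602 and 0.176. *Rpl4* had 966, 1927 and 2611 in letter A and 2539, 2721 and 2827 in letter B, a log2 difference of 0.60 (standard error 0.35, limma adjusted p = 0.176). Over the 12 mice, the SD of the log2 values was lowest at 0.31 for *Rps3*, 0.35 for *Rpl22* and 0.37 for *Rps21*, where *Rpl36a*, *Rpl10* and *Rps6* had 3.44, 3.42 and 3.41.

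**Figure D3:**
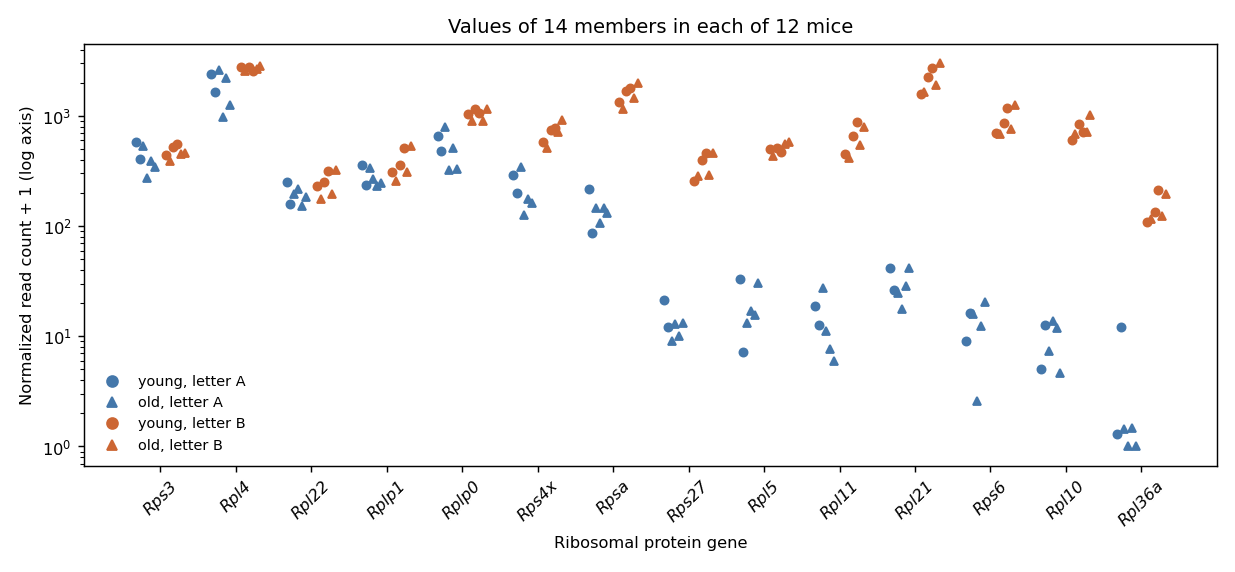
Normalized read count plus 1 (log axis) of 14 members in each of the 12 mice, with letter A in blue, letter B in orange, young mice as circles and old mice as triangles. The letters overlap from *Rps3* to *Rplp1* and are fully apart from *Rplp0* to *Rpl36a*.

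The members with large and with small letter differences also differed in how much coding sequence other genes share with them. The first 50 coding bases of 3 members with small and 3 with large letter differences are shown as examples. They are from the longest coding sequence annotated in GENCODE vM21, with the start codon in capitals.
Rps3: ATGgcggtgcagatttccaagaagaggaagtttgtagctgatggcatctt
Rpl22: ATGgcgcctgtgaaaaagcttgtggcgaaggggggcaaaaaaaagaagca
Rpl4: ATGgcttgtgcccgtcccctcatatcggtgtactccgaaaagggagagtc
Rpl10: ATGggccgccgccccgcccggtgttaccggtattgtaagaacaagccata
Rps6: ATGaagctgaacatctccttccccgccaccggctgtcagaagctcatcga
Rpl21: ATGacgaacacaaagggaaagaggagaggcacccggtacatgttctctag

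The first 3 of these stretches occurred in 0 other annotated genes, as exact matches on either strand of their transcripts. That of *Rpl10* occurred in 3 others, of *Rps6* in 7 and of *Rpl21* in 18, all of the latter annotated as pseudogenes. The genes themselves lie on chromosome 7 at 99477896 to 99483738 (*Rps3*), on chromosome 4 at 86854660 to 86857412 (*Rps6*), on chromosome X at 74270812 to 74273135 (*Rpl10*) and on chromosome 5 at 146832890 to 146837032 (*Rpl21*) in GRCm38. Not all members were like these examples in their first 50 bases. With small letter differences, *Rpl22l1* (0.13) had them in 1 other gene and *Rpl39* (0.62) in 4. With large ones, *Rpl36a* (6.18) and *Rpl5* (4.91) had them in only 1.

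Over the whole coding sequence, cut into all its overlapping 50-base stretches, the share that also occurred in another annotated gene was 8.05% for *Rps3*, 20.2% for *Rpl4* and 30.8% for *Rpl22*. It was 100% for *Rpl10*, *Rps6* and *Rpl21*, found in 15, 14 and 82 other genes, of which 14, 14 and 81 were pseudogenes. Of the 70 members, 22 had every stretch in another gene and 3 had none. A read that lies within such a stretch cannot be placed by its sequence alone, and how such reads were counted was not given in the sources used here. Values of members with many shared stretches are uncertain for that reason.

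The share of shared stretches ran with the letter difference. Across the 70 members, which come from the same 12 libraries, Spearman's rho was 0.84 and Pearson's r 0.70 (fit with no minimum). Of the 11 tested members under 50%, 3 were called higher in letter B, with a median log2 difference of 0.51. From 50% to under 90% it was 19 of 23 (median 1.41), from 90% to under 100% 10 of 10 (median 2.26), and at 100% 22 of 22 (median 4.67, lowest 1.0). Exon length had a Spearman's rho of 0.15 with the letter difference.

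Other genes with shared coding stretches had smaller median differences than the members of the same class. The 11718 other tested genes under 50% had a median of -0.12, with 8.92% called higher in letter B, and none exceeded a log2 difference of 2. Among the 66 others at 100% the median was 0.33, with 25 called higher (37.9%). Of all 65 tested genes above a log2 difference of 2 (0.526%), 34 were members. Among the 31 others, the 29 with a coding sequence had at least 80.4% of their stretches in another gene. They included *Gapdh* (glycolysis) at 11.2 to 23.4 normalized read counts in letter A and 673 to 928 in letter B, *Actg1* (cytoplasmic actin) and *Tpt1*. The part of the shared sequence in the letter difference was not tested.

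**Figure D4:**
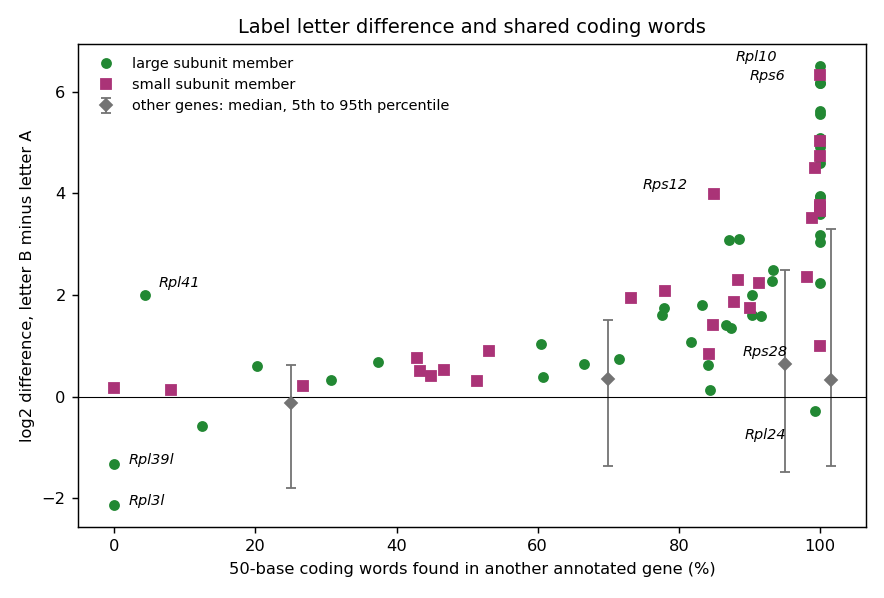
Log2 difference between letter B and letter A (y axis) against the share of 50-base coding stretches found in another annotated gene (x axis) for all 70 members, from the fit with no minimum. Grey diamonds give the median and the 5th to 95th percentile of the other tested genes in the same 4 classes of shared stretches, drawn at one position per class. The tested members rise from near 0 on the left to 6.51 at *Rpl10*, with *Rpl41*, *Rps28* and *Rpl24* apart from the rest and the paralogs *Rpl3l* (-2.13) and *Rpl39l* (-1.32) below 0 at the left edge.

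There were exceptions in both directions. *Rpl41*, the shortest ribosomal protein and named after its values were seen, had 4.35% shared stretches in its longest annotated coding sequence of 141 bases. Over all its protein-coding transcripts, untranslated parts included, 28.9% of the stretches occurred in another gene, so its share depends on the sequence taken. *Rpl41* had 45.5 to 81.4 normalized read counts in letter A and 174 to 433 in letter B, a log2 difference of 2.01 (standard error 0.21, limma adjusted p = 4.21e-08). *Rps28* had 100% shared stretches and the smallest difference of its class, 1.0 (standard error 0.34, limma adjusted p = 0.0241). *Rpl22l1*, with 84.4% shared stretches, had the smallest letter difference of the 66 tested members (0.13, standard error 0.45), and *Rpl39*, with 84.1%, was at 0.62 (standard error 0.30), neither of them called. *Rpl24* had 99.3% and was listed near 0 in both letters.

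Summed by class, the reads of the members were farthest apart between the letters at 100%. The 14 members under 50% held 0.337% to 0.667% of the reads of a mouse in letter A and 0.574% to 0.816% in letter B, which overlapped. The 22 members at 100% held 0.0275% to 0.0424% in letter A and 0.830% to 1.44% in letter B. In letter A these 22 members held less than the other classes in every mouse, and in letter B more than the class under 50%. The medians of letter A and letter B were 0.256% and 0.825% from 50% to under 90%, and 0.0924% and 0.504% from 90% to under 100%, so that the medians fell from class to class in letter A and had no such order in letter B.

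**Figure D5:**
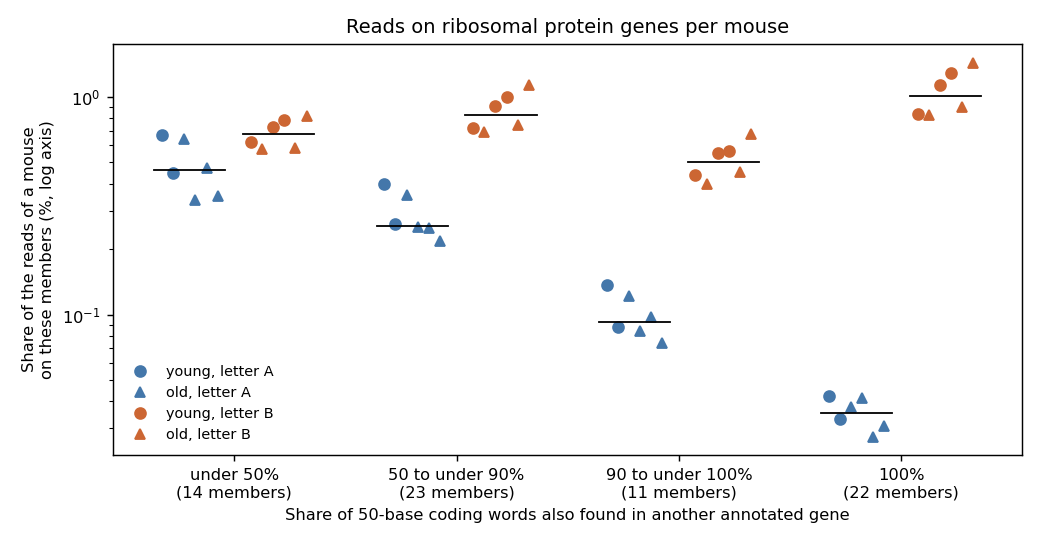
Share of the reads of a mouse (percent, log axis) on the members of each class of shared 50-base coding stretches, with 1 point per mouse and lines at the medians of letter A (blue) and letter B (orange). The letters overlap in the class under 50%, where the medians are 0.460% and 0.676%, and are farthest apart at 100%, with medians of 0.0354% and 1.01%.

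Some genes that hold the same stretches were listed in the table too, at low or at clear levels. *Wdr89*, which holds 66.6% of the coding stretches of *Rplp2*, had a mean of 29.4 normalized read counts in letter A and 66.4 in letter B. *Uimc1*, with 73.0% of those of *Rpl29*, had means of 47.1 and 62.0, and *BC004004*, with 53.5% of those of *Rpl21*, 47.9 and 53.1. These 3 genes were named after their values were seen. The shares are of the stretches of the member, and how many reads of these 3 genes lay in shared stretches is not known. Most genes that share stretches with a member with many copies were not listed at all. Of the 82 for *Rpl21* 1 was listed, and of the 14 for *Rps6* 0, so the reads on the rest are not known. Among the listed genes, copies that hold all stretches of a member were low. *Rpl10-ps3*, which holds all coding stretches of *Rpl10*, had a mean of 1.17 normalized read counts in letter A and 0.735 in letter B. *Rps27rt*, which holds all those of *Rps27*, had means of 0.840 and 3.87. All 7 genes named as ribosomal protein pseudogenes stayed under the minimum mean, and their sum was 4.35 to 25.5 in letter A and 11.6 to 22 in letter B. The highest mean among them was that of *Rpl9-ps1* in letter A, with 4.41, and that of *Rpl13a-ps1* in letter B, with 7.11.

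The ribosomal stalk, the protein arm that recruits translation factors, was measured in its 3 genes. *Rplp0* had a lowest, median and highest normalized read count of 322, 493.4 and 784 in letter A and 900, 1045 and 1149 in letter B, with no overlap. Its log2 difference was 1.04 (standard error 0.24, limma adjusted p = 0.00224). *Rplp2* was at 77 to 123 in letter A and 119 to 225 in letter B, overlapping, with 0.65 (standard error 0.19, limma adjusted p = 0.0118). *Rplp1* had 228 to 358 and 256.3 to 531 and was not called (0.39, standard error 0.20, limma adjusted p = 0.129). Between 60.4% and 66.6% of the coding stretches of the 3 genes were shared. The stalk proteins act together, and their age differences lay between -0.40 and -0.20, none of them called.

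Both tested paralogs, *Rpl22l1* and *Rps27l*, were not called by letter, while of their partners *Rps27* was called and *Rpl22* was not. *Rpl22l1*, which can take the place of *Rpl22*, had 2.46 to 22.1 normalized read counts in letter A and 5.05 to 22.4 in letter B (log2 difference 0.13, standard error 0.45), beside 0.32 for *Rpl22*. *Rps27l*, a p53 target and paralog of *Rps27*, had 12 to 37.1 and 12 to 30.9 (0.21, standard error 0.31), beside 8.14 to 20.5 and 253 to 458 for *Rps27* (4.73, standard error 0.21). Per kb of exon, *Rps27l* had a mean of 24.6 normalized read counts in letter A against 11.6 for *Rps27*, and in letter B 27.2 against 341. Shared coding stretches made up 26.8% for *Rps27l* and 100% for *Rps27*. The values of *Rps27* are uncertain for that reason, and the order of these genes in the cells cannot be read from them. *Rpl10l* had 0.622 to 7.89 and 0 to 5.55, beside *Rpl10* above, and *Rpl39l*, described in testis, 1.23 to 15.8 and 0.194 to 5.89, beside 12.3 to 54.2 and 34.4 to 99.9 for *Rpl39*. *Rps4x*, the X-linked gene, had 124 to 340 and 513 to 925 (1.75, standard error 0.23), and *Rpl7* 99.4 to 192 and 421 to 548 (1.62, standard error 0.18), both apart by letter.

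Of the members with a known role outside protein synthesis or in ribosomopathy 11 were tested, of which 9 were higher in letter B and 0 lower, beside 54 of all 66 members and 10.5% of all genes higher. *RPL5* and *RPL11*, which bind MDM2 with the 5S ribosomal RNA when ribosome assembly fails, were both among the members with 100% shared stretches. *Rpl5* was at 6.25 to 32 normalized read counts in letter A and 433 to 579 in letter B (log2 difference 4.91, standard error 0.26). *Rpl11* was at 4.92 to 26.2 and 413 to 880 (5.57, standard error 0.27). Neither was called for age with the letter as a covariate, with differences of 0.14 (standard error 0.26) and -0.33 (standard error 0.28).

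Of the small subunit genes mutated in Diamond-Blackfan anaemia, *Rps26* was at 48.0 to 244 normalized read counts in letter A and 359 to 790 in letter B (log2 difference 1.95), and *Rps19* at 39.4 to 101.7 and 96.7 to 198 (0.90, limma adjusted p = 0.00234), where the letters overlapped. The 5q- syndrome gene *Rps14* was at 105 to 249 and 140 to 321 and was not called (0.32, limma adjusted p = 0.242). *Rps27a*, which encodes a fusion of ubiquitin with a ribosomal protein, was at 3.69 to 18.9 and 78.7 to 204 (3.72). *Rpsa*, the laminin receptor precursor, was at 85.1 to 215 and 1165 to 2000 (3.53), and *Rpl26*, which binds the p53 mRNA, at 68.3 to 140 and 168 to 356 (1.35). All of these but *Rps14* were called higher in letter B.

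Within a letter, the highest values of the members fell on few mice. Old mouse 4 had the highest value of letter B in 38 of the 66 tested members and young mouse 5 in 24. In letter A young mouse 1 was highest in 32, old mouse 1 in 13 and old mouse 5 in 11. The median SD of the log2 values over the members was 0.47 within letter A and 0.36 within letter B, against 1.15 over all 12 mice.

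Pyrimidine stretches at the start were looked for in the 53 members matched by symbol in RefSeq (GRCm38.p6), as an unbroken run of at least 8 C or T reaching within 10 bases of an annotated start, on the strand of the gene. Such a run was present in 24 members (45.3%), against 16.1% of the 27025 genes with a start in RefSeq. Windows of 30 bases around the start are shown for a member with a long run and a large letter difference, 1 with a long run and a small difference, and 1 with a large difference and no such run, with the longest run in capitals.
Rps6, chr4:86857348-86857377, minus strand: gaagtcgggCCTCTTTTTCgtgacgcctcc
Rpl22l1, chr3:28805498-28805527, plus strand: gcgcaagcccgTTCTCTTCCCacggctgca
Rpl10, chrX:74270806-74270835, plus strand: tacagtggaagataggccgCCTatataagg

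Members with and without such a run had like letter differences in the median. The 24 members with it had a median log2 difference of 1.91 with 19 called higher in letter B, and the 25 tested members without it 2.09 with 22 called. No match says only that these letters are not in this window.

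Other lists of the pathway had smaller median letter differences than the members. Of 12 tested translation factors and related genes with terminal oligopyrimidine mRNAs, 7 were higher in letter B and 0 lower, with a median log2 difference of 1.14 and 0 called for age. The largest were *Tpt1* with 29.8 ± 9.34 (SD, n = 6) normalized read counts in letter A and 534 ± 93.3 (SD, n = 6) in letter B, and *Eef1g*, an elongation factor subunit, with 82.9 ± 27 and 350 ± 37.7 (SD, n = 6 each). They had 100% and 90% shared stretches. *Rack1*, a ribosomal protein that the symbol rule missed, had 1.44% and a log2 difference of 0.20 (standard error 0.25, limma adjusted p = 0.536), while *Rpl36al* had 100% and 1.11 (standard error 0.41, limma adjusted p = 0.0380).

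Over all genes tested, 10.5% were called higher and 25.6% lower in letter B. Ribosome biogenesis factors were called in 3 of 39 genes, all higher in letter B, with a median of 0.23, among them the nucleolar proteins *Fbl* with 1.26 (standard error 0.39) and *Nop56* with 1.04 (standard error 0.20). Of 14 subunits and factors of RNA polymerase I 0 were called (median 0.09), and *Taf1d* had the largest difference at 0.72 (limma adjusted p = 0.0544). Of 64 mitochondrial ribosomal proteins 1 was called higher and 0 lower, with a median of 0.01. Of 16 mTOR and growth regulators 6 were higher and 0 lower (median 0.34), led by *Myc* with 0.87 (standard error 0.22) and *Larp1* with 0.86 (standard error 0.21). Of 12 genes of the p53 response 1 was higher, *Trp53* with 0.80 (standard error 0.23), and 1 lower, *Zmat3* with -0.88 (standard error 0.29). The single small nucleolar RNA host gene tested, *Rc3h2*, was not called.

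None of these other lists held a gene called for age, at an adjusted p under 0.05 with limma, the nearest of those named being *Cd34* with an adjusted p of 0.0544. With the letter as a covariate, *Cd34*, a marker of multipotent progenitors, was called lower in old mice at 84.5 ± 10.4 (SD, n = 7) against 182 ± 53 (SD, n = 5) normalized read counts (log2 difference -0.99, standard error 0.19, limma adjusted p = 0.00856).

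Markers of other cells were measured in the same mice, and none was at 0 in all mice. Their counts by letter stand beside the 25.6% of all genes tested that were lower and the 10.5% that were higher in letter B. The 10 erythroid markers present summed to 229 to 1181 normalized read counts in letter A and 120 to 393 in letter B, with 4 of 10 tested lower in letter B, among them *Slc4a1*. Those of neutrophils and monocytes summed to 344 to 4640 and 338 to 1100, with 3 of 9 lower, among them *Camp* and *Mpo*. Lymphoid markers summed to 190 to 347 and 91.2 to 222, with 5 of 8 lower, among them *Cd4* and *Pax5*. Of 6 megakaryocyte markers, which summed to 387 to 778 and 490 to 932, *Vwf* was higher and *Gp6* lower. Of the 2 tested markers of multipotent progenitors (list sums of 119 to 297 and 98.96 to 288), *Flt3* was lower. HSC markers summed to 1867 to 4676 in letter A and 4490 to 6345 in letter B, with 4 of 12 higher and 0 lower, led by *Gata2*. The part of these cells, and of the depth, in the difference of the ribosomal protein genes was not tested, beyond the thinned reads given above.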

How the data were processed

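LSK-SLAM RNA-seq libraries of 5 young and 7 old mice were analysed, each sequenced in 2 runs (24 labelled samples) that the table of the authors joins in 1 column per mouse. The deposited values are normalized read counts, a signal per gene made by the authors by dividing reads by a scaled library size, with no correction for gene length. The submitters' processing notes name FastQC 0.11.8, STAR 2.5.4b, edgeR 3.24.3 and mm10, and the counting step, its use of strand and its handling of reads that match several genes were not given in the sources used here. Whole reads were recovered for 100% of values (within 0.01 read), with 0.861 to 5.12 M reads per mouse. A second deposited table holds the authors' own comparison (log2 fold changes, log2 CPM, likelihood ratios and p-values) and was not used.

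Genes with a mean of at least 10 were tested with limma 3.58.1 (trend, R 4.3.3) on log2(value + 1), a scale that understates changes of low genes, at a Benjamini-Hochberg adjusted p under 0.05 over 12354 genes. The terms were age, then age with the label letter, then their interaction. Groups came from the labels. Alternatives were other pseudocounts, minimum means and scalings, thinned reads, edgeR 4.0.16, DESeq2 1.42.0, leaving out each mouse, letters alone, and a replicate block. The tests were checked on simulated reads, where they missed most 2-fold and found most 4-fold changes. The age changes were simulated without a letter difference. A gene that was not called may still differ. Nothing in the labels says that mice shared a litter or a day, and p-values measure the spread between these mice. The 2 runs of a mouse were counted once.

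Coding stretches were matched exactly, on both strands, against all transcripts of GENCODE vM21 (GRCm38), in which 18745 of 18762 genes were found, and starts came from RefSeq. Each gene gave its longest complete annotated coding sequence, which need not be that of its main protein. Named members were stalk genes, paralogs and their partners, members with a known role outside protein synthesis or in ribosomopathy, the 5 largest called differences per direction, the 5 largest age differences per direction, and the 3 highest and 3 lowest levels per kb and SDs. From other lists up to 2 genes were named by size of the letter difference, with every gene called for age. Members and lists were chosen with earlier results of these data known. With 2.12 M reads at the median of letter A, the value of 3 reads was 0.933 to 3.69 normalized read counts there and 0.583 to 0.979 in letter B, and counts near it cover counting error only. A few genes that these rules would name are not reported here.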

Additional observations from a re-analysis of the deposited data

Results flagged for a closer look

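In 6 of the 128 groups examined 1 mouse stood apart from the rest of its group by Dixon's test of the gap over the range, applied to the named members and the share of reads in young, old, letter A and letter B mice, where chance gives about 1 in 20 groups. Among old mice, old mouse 4 was highest for *Rpl22* (321 normalized read counts) and *Rplp1* (531). Within letter A, young mouse 2 was highest for *Rpl36a* (11.1), young mouse 1 for *Rps27* (20.5) and old mouse 5 for *Rps27l* (37.1). Within letter B, young mouse 5 was highest for *Rpl23a* (107).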

How the results depend on the processing

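Under every alternative run, the number of members called for age and for the interaction stayed at 0, and the number called for the letter lay between 45 (young mice alone) and 59 (median ratios) of those tested, apart from the 30 higher and 21 lower with the member sum. Leaving out 1 mouse gave 0 members for age and 49 to 57 for the letter. With the replicate block over replicates 1 to 5 the counts were 0 and 57. The numbers mark different animals and did not pair the mice: deviations of same-numbered mice had a mean correlation of 0.136, and 2 of 5 old mice correlated best with their own number. Rescaling by the member sum turned the letter difference negative for 29 of the 66 tested members and left 37 positive. On that scale all genes tested shifted to a median of -1.83. Among the named members the negative ones were *Rps3* (-1.66), *Rps27l* (-1.50), *Rpl22l1* (-1.50), *Rps14* (-1.47), *Rpl22* (-1.47), *Rplp1* (-1.41), *Rps21* (-1.38), *Rpl4* (-1.20), *Rpl39* (-1.14), *Rplp2* (-1.14), *Rps15* (-1.04), *Rps19* (-0.89), *Rplp0* (-0.76), *Rps28* (-0.71), *Rpl26* (-0.44), *Rpl7* (-0.18) and *Rps4x* (-0.053). *Rpl22l1* was also negative with the replicate block (-0.68) and, leaving out 1 mouse, ranged from -0.21 to 0.43, below 0 without old mouse 2, 3 or 7. *Rps28* for age ranged from -0.029 (without young mouse 2) to 0.57 when 1 mouse was left out. With the letter as a covariate, an alternative chosen after the data were seen for the other lists, 1 gene (*Cd34*) was called for age there, against 0. The letter and the depth go together, and no mouse of letter A reached the depth of letter B.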
